A study of Mus musculus with 4 samples.

Results

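Contractile genes of the actin cytoskeleton were examined in the mouse myoblast cell line C2C12, held out of the cell cycle (G0) in suspension. The 10 genes were Acta2, Tagln, Cnn1, Cnn2, Myl9, Tpm1, Cald1, Lmod1, Actn1 and Vcl, chosen by name as targets of serum response factor (SRF). They were found in the value table through the gene symbols of the platform annotation, which gave 18 probe sets for 10 of the 12393 genes named on the array. A probe set is a group of short oligonucleotides that together report 1 transcript or several related ones, and 5 of the genes had 1 probe set while 5 had several. The limits of the model are those of 1 cell line in 1 state.

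Both groups of arrays came from cells grown in medium with fetal calf serum and then kept for 48 hours in methyl cellulose; one group is labelled control, and the other received purified Wnt3A at 50 ng/ml. Wnt3A is a secreted ligand that stabilises β-catenin, and the title of the series places the comparison in β-catenin networks of quiescence. Each group had 2 Affymetrix arrays of total RNA. The labels call them biological replicates without saying whether cultures were started apart, so p-values measure the spread between these arrays, which may be technical. Signals are the deposited values, taken as log2, and a difference is Wnt3A minus control on that scale.

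SRF is a transcription factor that binds the CArG box, a short A/T-rich element flanked by C and G pairs. Its partners of the myocardin-related family (Mrtfa, Mrtfb) are held in the cytoplasm by monomeric actin and enter the nucleus when actin polymerises, so that attachment and tension of a cell are known to raise contractile genes.

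The promoter windows of 4 of the genes are shown because they hold CArG elements and because the signals of these genes differed in how far the arrays of the Wnt3A group lay apart. The windows are those of RefSeq on GRCm38.p6 and run from 250 bases before to 50 bases after the annotated start of transcription. Capitals mark a CArG box, or a CArG box with 1 of its 6 core bases other than A or T. Acta2 lies at chr19:34255324-34255623 on the minus strand, and Myl9 at chr2:156775214-156775513, Cnn2 at chr10:79988350-79988649 and Vcl at chr14:20929148-20929447 on the plus strand.
Acta2: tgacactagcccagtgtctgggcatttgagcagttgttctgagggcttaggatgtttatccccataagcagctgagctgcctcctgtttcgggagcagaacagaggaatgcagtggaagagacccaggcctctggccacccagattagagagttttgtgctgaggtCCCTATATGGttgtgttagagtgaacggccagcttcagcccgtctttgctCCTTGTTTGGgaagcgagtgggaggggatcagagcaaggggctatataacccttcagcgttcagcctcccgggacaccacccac
Myl9: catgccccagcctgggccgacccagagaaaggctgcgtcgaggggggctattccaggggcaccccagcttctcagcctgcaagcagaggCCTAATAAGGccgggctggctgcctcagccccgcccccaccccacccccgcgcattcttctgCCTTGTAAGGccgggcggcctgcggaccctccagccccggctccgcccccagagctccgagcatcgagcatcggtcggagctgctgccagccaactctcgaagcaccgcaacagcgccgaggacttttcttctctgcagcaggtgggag
Cnn2: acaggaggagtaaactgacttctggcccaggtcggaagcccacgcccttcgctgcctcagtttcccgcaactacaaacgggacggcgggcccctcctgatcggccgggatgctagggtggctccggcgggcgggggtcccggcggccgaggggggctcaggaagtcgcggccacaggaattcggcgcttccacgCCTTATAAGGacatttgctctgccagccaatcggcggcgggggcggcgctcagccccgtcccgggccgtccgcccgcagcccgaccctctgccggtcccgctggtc
Vcl: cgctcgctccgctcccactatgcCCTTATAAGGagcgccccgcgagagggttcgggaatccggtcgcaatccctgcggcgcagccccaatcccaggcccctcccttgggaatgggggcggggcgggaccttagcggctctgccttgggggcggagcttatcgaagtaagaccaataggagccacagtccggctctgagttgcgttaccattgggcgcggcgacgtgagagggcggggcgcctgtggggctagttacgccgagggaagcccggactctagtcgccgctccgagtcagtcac

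The motif reads the same on both strands, so 1 search covers both. A full CArG box was found in the windows of Myl9, Cnn2 and Vcl. These are 3 of the 10 windows, which belong to 9 genes, while 1.63% of all 32851 windows held one. The genes were chosen as targets of SRF, which binds this box, so a higher share was built into the choice. Cnn2 and Vcl carried the same element, ccttataagg, beginning 56 bases before the start in Cnn2 and 227 bases before it in Vcl. In Myl9 the full box, cctaataagg, began 161 bases before the start and a box with 1 other core base 99 bases before it. The Acta2 window held 2 boxes of the second kind, ccctatatgg at 84 and ccttgtttgg at 34 bases before the start; 8.50% of all windows held at least 1 such box. Neither kind was found in the windows of Cnn1, Tpm1, Cald1 (which has 2), Lmod1 or Actn1, which says only that these letters are not in those 300 bases. No window was used for Tagln. The MCAT motif CATTCC, bound by TEAD factors and searched on both strands, was in the windows of Acta2, Cald1, Lmod1, Tpm1 and Vcl, and in 14.7% of all windows, and no match overlapped another. These matches describe the sequences and were not tied to any binding measurement.

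None of the 10 genes passed the test for a difference between Wnt3A and control. Over the whole table, 16969 probe sets with a mean signal of at least 2.01 were tested, 17 of the 18 probe sets among them, and each of the 10 genes had at least 1. In limma with Benjamini-Hochberg adjustment over all probe sets tested, 0 of the 17 passed an adjusted p of 0.05, where the share of all probe sets that passed was 0%. Their adjusted p-values lay between 0.977 and 0.989. At an unadjusted p under 0.05 there were 0 of the 17, and 839 of all probe sets, or 4.94%. Fits without an intensity trend and with arrays scaled to their hybridization controls also gave 0 of the 17.

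The differences of single probe sets were mostly below 0, with a median absolute size of 0.36, beside 0.19 over all probe sets tested. Of the 17, 13 were lower with Wnt3A and 4 higher, and the median difference was -0.33, while that of all probe sets tested was -0.0037. This lean rested on 1 array. Without Wnt3A replicate 2 the median was 0.10, with 8 lower and 9 higher, and without Wnt3A replicate 1 it was -0.50, with 15 lower and 2 higher. With arrays scaled to their hybridization controls 9 of the 17 were lower and 8 higher. That scaling shifts each array by 1 constant, so every difference rose by the same amount. It moved the median of all probe sets to 0.31 and that of the 17 to -0.02. Both Wnt3A arrays lay below both controls for 5 probe sets (29.4%), where the share over all probe sets tested was 17.9%, and above both controls for 2 (11.8%), where it was 15.1%. The first count became 12 when Wnt3A replicate 1 was left out and 10 when control replicate 2 was, where 1 array is set against 2 and the share over all probe sets was 37.2% and 31.8%. It became 0 with hybridization control scaling, where that share was 4.23%.

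**Figure D1:**
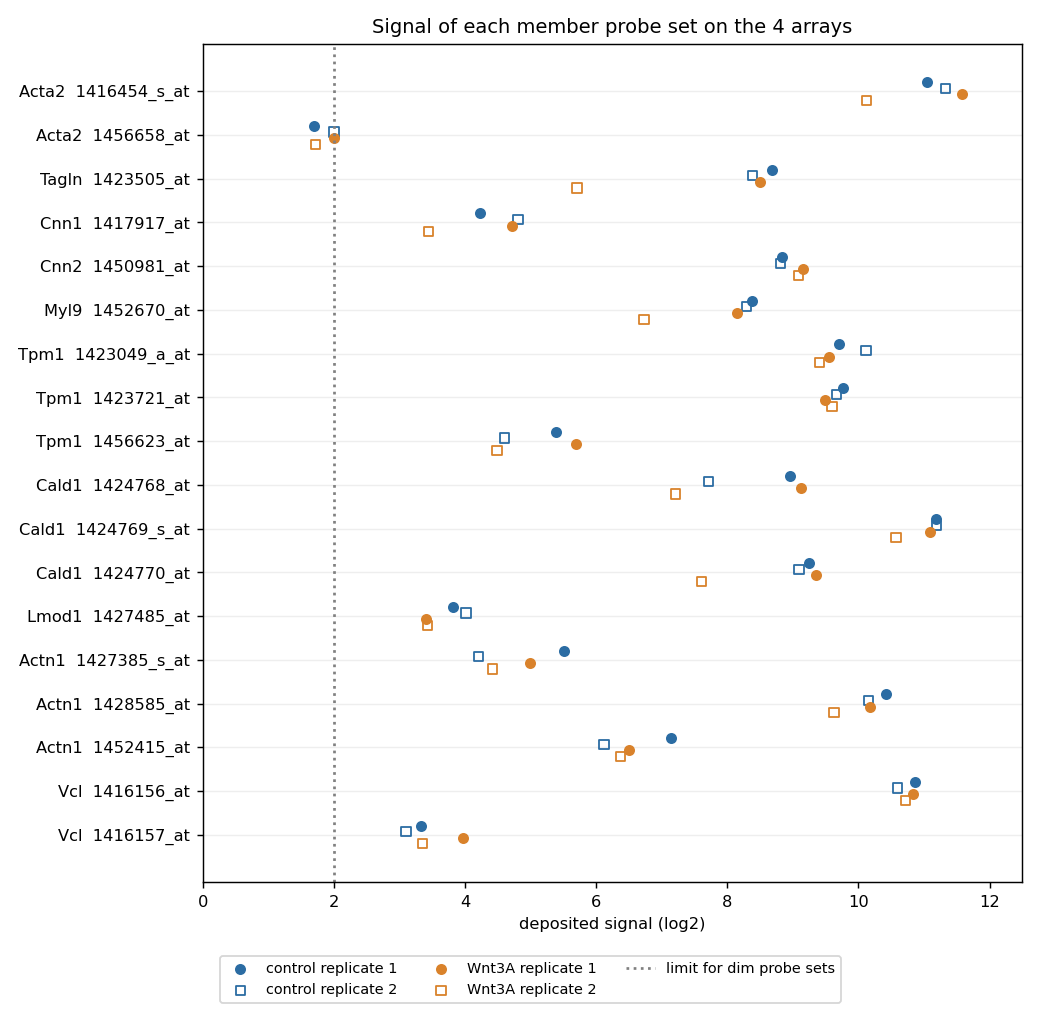
Deposited signal (log2, horizontal axis) of each of the 18 probe sets of the 10 genes on the 4 arrays; filled symbols are replicate 1, open symbols replicate 2, and the dotted line is the limit for dim probe sets, 2.01. Open Wnt3A symbols stand far to the left of the other 3 for Tagln, Acta2, Cnn1, Myl9 and 1 probe set of Cald1.

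The thin filament genes come first. Acta2, which encodes smooth muscle α-actin and is a classic readout of SRF, had signals of 11.05 and 11.32 on the control arrays and 11.58 and 10.12 on the Wnt3A arrays on probe set 1416454_s_at. The Wnt3A arrays were the highest and the lowest of the 4, and the groups overlapped. The difference was -0.33 (95% confidence interval -1.64 to 0.98, SE 0.50, adjusted p = 0.980 in limma). A suffix of _s_at marks a probe set that can report several transcripts, and the actins are close in sequence, so signal of another actin on it was not tested. The other Acta2 probe set, 1456658_at, read between 1.69 and 2.01 on all arrays, with a mean under the limit for dim probe sets, and was not tested.

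Tagln encodes transgelin (SM22α), an actin-binding protein of the calponin family. Its probe set 1423505_at read 8.68 and 8.38 on the control arrays and 8.49 and 5.71 on the Wnt3A arrays. Wnt3A replicate 1 lay between the controls, and replicate 2 lay far below all others. The mean was 2.70-fold lower with Wnt3A, a difference of -1.43 (95% confidence interval -3.85 to 0.98, SE 0.93, adjusted p = 0.977 in limma). This was the widest difference among the 17 probe sets and the only one of at least 2-fold in mean (1 of 17), where 1.93% of all probe sets tested were as much lower. Without Wnt3A replicate 2 it was -0.04, and without Wnt3A replicate 1 it was -2.83.

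The calponin genes Cnn1 and Cnn2 encode actin-binding proteins that damp myosin ATPase activity; Cnn1 is typical of differentiated smooth muscle and Cnn2 is found in many cell types. Cnn1 (1417917_at) read 4.23 and 4.81 on the control arrays and 4.72 and 3.45 on those with Wnt3A, giving a difference of -0.44 (SE 0.50) that was 0.20 without Wnt3A replicate 2. Again replicate 2 of the Wnt3A group was the lowest array while replicate 1 lay between the controls. Cnn2 (1450981_at) showed a different picture, with close replicates at 8.84 and 8.82 on the control arrays and 9.15 and 9.09 on the Wnt3A arrays. Both Wnt3A arrays lay above both controls, by 0.29 on average (95% confidence interval -0.16 to 0.74, SE 0.17, adjusted p = 0.977 in limma), and the interval includes 0.

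Tpm1 encodes α-tropomyosin, which winds along the actin filament and is spliced into many isoforms. Its probe set 1423049_a_at read 9.70 and 10.11 on the control arrays and 9.55 and 9.40 on those with Wnt3A, giving a difference of -0.43 (SE 0.22). Probe set 1423721_at read 9.76 and 9.67 on the control arrays and 9.49 and 9.60 on those with Wnt3A, giving a difference of -0.17 (SE 0.17). In both, the Wnt3A arrays lay below the controls. The third, 1456623_at, read 5.39 and 4.60 on the control arrays and 5.69 and 4.49 on the Wnt3A arrays, with a difference of 0.10 (SE 0.51) and overlapping groups. On it replicate 1 was above replicate 2 in both groups, a gap not seen on the other 2 probe sets of the gene.

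Cald1 encodes caldesmon, which binds actin, tropomyosin and myosin. Its brightest probe set, 1424769_s_at, read 11.19 on each control array and 11.09 and 10.57 on those with Wnt3A, giving a difference of -0.36 (SE 0.22). Probe set 1424770_at read 9.24 and 9.09 on the control arrays and 9.35 and 7.61 on those with Wnt3A, giving a difference of -0.69 (SE 0.59), and 0.18 without Wnt3A replicate 2. Probe set 1424768_at read 8.96 and 7.72 on the control arrays and 9.12 and 7.21 on those with Wnt3A, giving a difference of -0.18 (SE 0.76). All 3 were designed on 1 expressed sequence and had their lowest signal on Wnt3A replicate 2. They differed in whether the control arrays also lay apart, which was the case for 1424768_at alone.

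Lmod1, leiomodin, nucleates actin filaments and is enriched in smooth muscle. It read 3.82 and 4.02 on the control arrays and 3.41 and 3.43 on the Wnt3A arrays (1427485_at). Here the 2 Wnt3A arrays were nearly equal and below both controls, a difference of -0.50 (95% confidence interval -1.02 to 0.03, SE 0.20). Its unadjusted p, 0.0595, was the lowest of the 17, with an adjusted p of 0.977 in limma, and its signal was low. Without any 1 array the difference stayed between -0.59 and -0.40, and with hybridization control scaling it was -0.18.

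Myl9, the regulatory light chain whose phosphorylation switches smooth muscle and non-muscle myosin on, read 8.37 and 8.29 on the control arrays and 8.16 and 6.73 on the Wnt3A arrays (1452670_at). Both Wnt3A arrays lay below both controls, replicate 1 by little and replicate 2 by much. The mean was 1.85-fold lower, a difference of -0.89 (95% confidence interval -2.19 to 0.41, SE 0.50, adjusted p = 0.977 in limma), which was -0.17 without Wnt3A replicate 2 and -1.60 without Wnt3A replicate 1.

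Actn1 and Vcl encode α-actinin and vinculin, which cross-link actin and tie it to focal adhesions, the contacts through which attached cells pull on their substrate. Actn1 read 10.42 and 10.15 on the control arrays and 10.18 and 9.63 on the Wnt3A arrays on 1428585_at, a difference of -0.38 (SE 0.25). Probe sets 1452415_at and 1427385_s_at, both designed on the same cDNA, differed by -0.19 (SE 0.39) and -0.15 (SE 0.51). On these 2 the control arrays lay furthest apart, at 7.14 and 6.12 and at 5.51 and 4.21, and the Wnt3A signals fell between them. Vcl (1416156_at) was among the steadiest, at 10.86 and 10.59 on the control arrays and 10.83 and 10.72 on those with Wnt3A, giving a difference of 0.04 (95% confidence interval -0.42 to 0.51, SE 0.18). Its dimmer probe set 1416157_at read 3.33 and 3.10 on the control arrays and 3.97 and 3.35 on those with Wnt3A, giving a difference of 0.45 (SE 0.28), with both Wnt3A arrays above the controls.

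**Figure D2:**
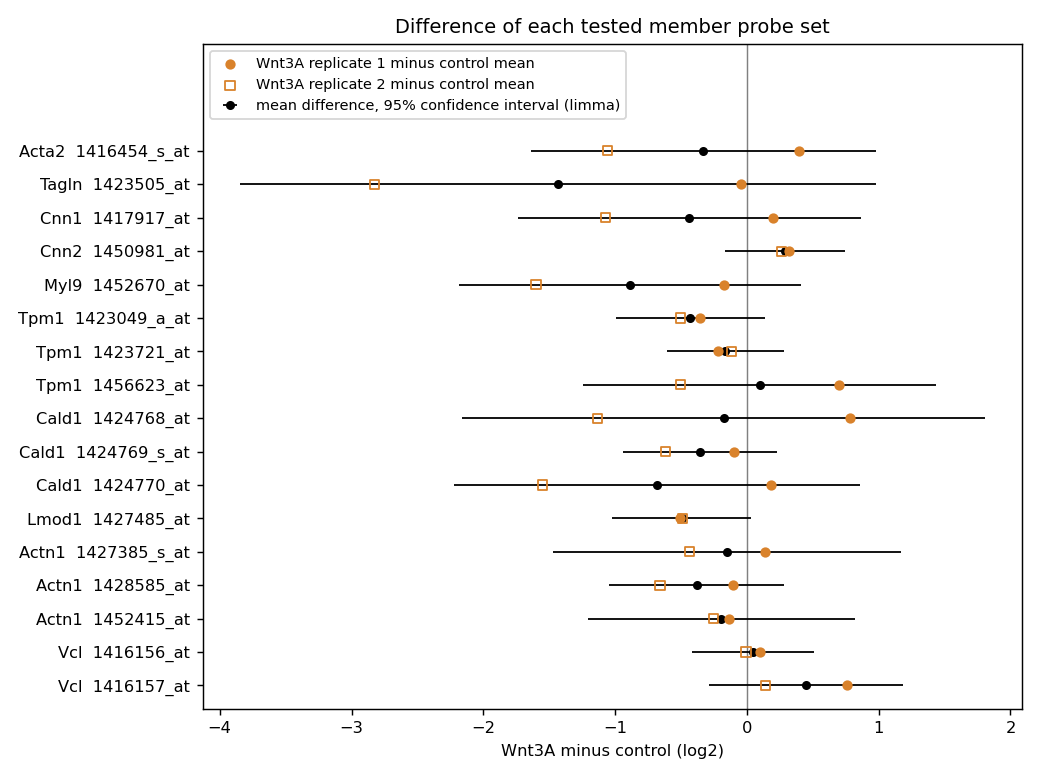
Wnt3A minus control (log2, horizontal axis) for the 17 tested probe sets; black points and bars are the mean difference with its 95% confidence interval in limma (n = 2 arrays per group), filled and open orange symbols are the 2 Wnt3A arrays, each against the control mean. Every bar includes 0, and for Tagln, Acta2, Cnn1, Myl9 and 2 probe sets of Cald1 the open symbol stands at or beyond -1.06 while the filled one lies between -0.17 and 0.78.

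A wide gap inside the Wnt3A group was frequent among these probe sets. Wnt3A replicate 2 was at least 2-fold under Wnt3A replicate 1 for 7 of the 17 probe sets (41.2%), where 5.42% of all probe sets tested had such a gap. The 7 belonged to Tagln (2.78), Cald1 (1.91 and 1.74), Acta2 (1.46), Myl9 (1.43), Cnn1 (1.28) and Tpm1 (1.20), given as replicate 1 minus replicate 2. Of all probe sets tested, 0.283% had a gap in that direction at least as wide as that of Tagln, and 2.34% one as wide as that of Acta2. The gap was chosen for description after the values were seen and was not tested, since a group of 2 arrays gives no test of its own spread. Probe sets of 1 gene are not independent readings.

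The same comparison among the controls gave fewer wide gaps. Control replicate 2 was at least 2-fold under control replicate 1 for 3 of the 17, namely 2 of Actn1 and the Cald1 probe set 1424768_at, which had a wide gap in both groups, and for 2.65% of all probe sets tested. Control replicate 2 was under control replicate 1 for 13 of the 17 (76.5%, beside 46.5% of all probe sets tested), and Wnt3A replicate 2 under Wnt3A replicate 1 for 15 (88.2%, beside 48.8%). Of the 7 with the wide Wnt3A gap, 5 had the same direction among the controls. Acta2 and Cnn1 went the other way there, with control replicate 2 above replicate 1 by 0.27 and 0.58. Centred on its mean, the median probe set of the 17 lay at 0.18 and 0.06 on the control arrays and at 0.21 and -0.44 on Wnt3A replicates 1 and 2. The median gap in the Wnt3A group was 0.57 for the 17 and -0.01 for all probe sets tested. Cnn2, Lmod1, Vcl on 1416156_at and Tpm1 on 1423721_at had Wnt3A gaps of at most 0.10 in size.

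**Figure D3:**
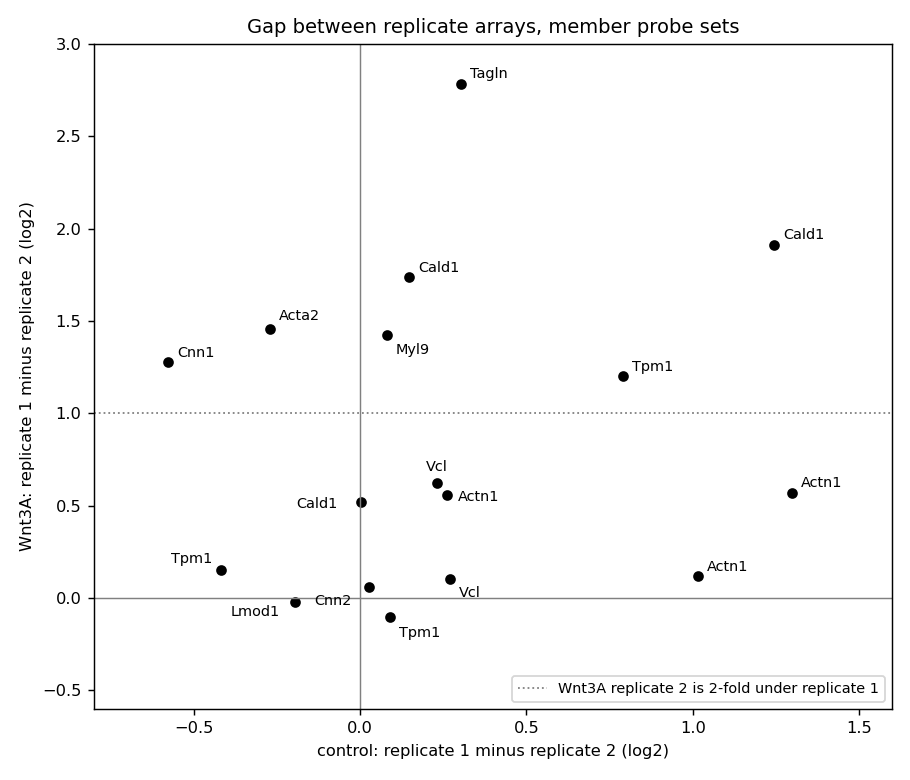
Replicate 1 minus replicate 2 (log2) among the control arrays (horizontal axis) and among the Wnt3A arrays (vertical axis) for the 17 tested probe sets, 1 point each. The 7 points above the dotted line had at least 2-fold less signal on Wnt3A replicate 2; Tagln stands at 2.78 against 0.30 in control.

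Of the control measures of the arrays, the hybridization controls stood apart on Wnt3A replicate 2. Its hybridization controls, bacterial and phage transcripts added before hybridization, averaged 6.66 over 9 probe sets, and 7.05 to 7.25 on the other arrays. The 18S ribosomal RNA probe sets were lowest on control replicate 2, at 7.21, and averaged 9.40 on Wnt3A replicate 2 and 10.4 or 10.5 on both replicates numbered 1. The difference of the 3′ and 5′ Gapdh probe sets, a sign of RNA integrity, was 0.16 on both Wnt3A arrays and 0.09 and 0.31 in control. That of Actb was 0.81 and 0.89 on the Wnt3A arrays and 0.70 and 0.93 in control, higher on replicate 2 in both groups. Column medians lay between 4.15 and 4.22. The part of the hybridization signal in the gap was not tested.

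Markers of cell types were set beside the genes. Of 7 smooth muscle markers 5 passed the limit for dim probe sets. The defining Myocd (1.48 to 1.85) and Ppp1r14a (1.07 to 1.45) stayed under it on all arrays and Myh11 (1.86 to 2.48) lay near it, while Smtn, Synpo2, Actg2 and Des, the latter also a gene of skeletal muscle, were above it. Of 6 myoblast markers 5 were tested, and the median signal over all 6 was 6.23 and 6.26 in control, 6.25 on Wnt3A replicate 1 and 5.03 on Wnt3A replicate 2. Within that list Myod1, the myoblast determination factor, read 6.32 and 3.62 with Wnt3A and Cdh15, M-cadherin, 5.69 and 4.04, so that 2 of 5 had a 2-fold gap in the direction of Tagln and Acta2. Myf5, another determination factor, had no such gap and was higher with Wnt3A. It read 6.57 and 5.98 on the control arrays and 7.77 and 7.65 on those with Wnt3A. The difference was 1.43 (SE 0.28, adjusted p = 0.629 in limma). The 6 differentiating muscle markers had both Wnt3A arrays below both controls in 6 of 6, beside 19.6% of all tested genes, with medians of 7.81 and 9.16 on the control arrays and 7.45 and 6.78 on the Wnt3A arrays. Of 6 fibroblast and mesenchymal markers 4 were tested, and 3 of them (Pdgfra, Dcn and Fap) had both Wnt3A arrays below both controls. Wnt3A replicates 1 and 2 read 8.69 and 7.29 for Pdgfra, a 2-fold gap in the direction of Tagln and Acta2. For Dcn they read 6.03 and 7.08, a 2-fold gap in the opposite direction. Lum and Thy1 stayed under the limit on all arrays. Of the endothelial markers 1 of 4 was tested (Kdr), and of the macrophage and leukocyte markers 3 of 4, with Ptprc at 1.14 to 1.28; Csf1r, the receptor of a macrophage growth factor, read 5.19 on Wnt3A replicate 2 and 3.26 to 3.53 on the other arrays. The part of cell state in the Tagln and Acta2 signals was not tested, and in such bulk samples fewer cells of a type and less RNA per cell cannot be told apart.

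SRF itself and its coactivators lay close between the groups. Of 9 genes on the list 8 were on the array and 7 tested; 0 passed over all probe sets in limma, and at an unadjusted p under 0.05 there were also 0. Srf read 6.40 and 6.49 on the control arrays and 6.29 and 6.24 on those with Wnt3A, giving a difference of -0.18 (SE 0.21) that was 0.14 with hybridization control scaling and 0.057 on its other probe set. Mrtfa differed by 0.12 (SE 0.29), Mrtfb by 0.057 (SE 0.20), Fhl2, a LIM domain cofactor, by 0.18 (SE 0.24) and the ternary complex factor gene Elk3 by 0.21 (SE 0.20). Both Wnt3A arrays lay above both controls for 1 of the 7 and below them for 1, where over all tested genes, each by its brightest probe set, the shares were 14.8% above and 19.6% below. Wnt3A replicates 1 and 2 read 6.29 and 6.24 for Srf, 5.52 and 5.56 for Mrtfa and 2.81 and 2.51 for Mrtfb, so that none of these had the gap seen for Tagln.

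Immediate early targets, which SRF regulates with ternary complex factors in place of the myocardin family, had a median difference of -0.19 over 10 tested genes, beside -0.019 over all tested genes, with 4 higher and 6 lower; with hybridization control scaling the median was 0.13, beside 0.31 over all probe sets. Egr1, a zinc finger factor, differed by -0.44 (SE 0.36) and the AP-1 subunit genes Fos and Junb by -0.32 (SE 0.46) and 0.23 (SE 0.34). Mcl1, a survival gene, differed by 0.59 (SE 0.19) and the phosphatase gene Dusp1 by -1.16 (SE 0.48). These 2 had the lowest unadjusted p of the list, and 0 of the 10 passed in limma, with 1 at an unadjusted p under 0.05. The Wnt3A arrays read 9.73 and 8.44 for Fos and 8.53 and 7.17 for Dusp1, and Wnt3A replicate 2 was at least 2-fold under replicate 1 for these 2 of the 10. Without Wnt3A replicate 2 the Dusp1 difference was -0.49, and without Wnt3A replicate 1 it was -1.84.

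Other smooth muscle contractile genes gave 9 tested of 18 listed, with a median of -0.19 and 0 passing in limma, nor any at an unadjusted p under 0.05 on its brightest probe set. The median was 0.12 with hybridization control scaling, beside 0.31 over all probe sets. It ran from -0.43 to 0.044 with 1 array left out. Actg2, the gene of enteric smooth muscle actin, read 8.23 and 8.17 on the control arrays and 8.20 and 7.01 on those with Wnt3A, giving a difference of -0.59 (SE 0.43). It was the 1 gene of the 9 with Wnt3A replicate 2 at least 2-fold under replicate 1, while Smtn had a gap of that width in the opposite direction, at 5.21 and 6.35. The LIM protein gene Fhl1 differed by -0.76 (SE 0.36), between -1.18 without Wnt3A replicate 1 and -0.34 without Wnt3A replicate 2, and Myh11, the smooth muscle myosin heavy chain gene, by 0.42 (SE 0.17) at signals near the limit for dim probe sets. The myosin light chain kinase gene Mylk differed by -0.22 (SE 0.28), the smoothelin gene Smtn by -0.19 (SE 0.49) and the LIM protein gene Csrp1 by 0.16 (SE 0.23). A dimmer Mylk probe set gave -0.65 (SE 0.23, unadjusted p = 0.0376, adjusted p = 0.957 in limma), with both Wnt3A arrays below both controls. A second Csrp1 probe set gave -0.034. For Smtn and Mylk the difference was above 0 with hybridization control scaling.

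Among paralogues of the 10 genes 14 of 17 listed were tested, with a median of 0.032, 7 higher and 7 lower, and Wnt3A replicate 2 at least 2-fold under replicate 1 for 1 of the 14 (Tmod1). Cnn3, the acidic calponin gene, differed by 0.22 (SE 0.21). The transgelin paralogue Tagln2 differed by 0.30 (SE 0.35), with Wnt3A signals of 8.91 and 9.31, so that replicate 2 was the higher. The tropomyosin genes Tpm2, Tpm3 and Tpm4 differed by -0.091 (SE 0.18), 0.32 (SE 0.23) and 0.13 (SE 0.18), the Tpm2 value being above 0 with hybridization control scaling. On another Tpm2 probe set, 5.04 and 5.16 on the control arrays stood against 4.80 and 4.10, a difference of -0.65 (SE 0.32). The 4 other Tpm3 probe sets gave 0.26, 0.075, -0.81 and -0.79, the last of them at an unadjusted p of 0.0317 (adjusted p = 0.948 in limma). The non-muscle α-actinin gene Actn4 differed by 0.18 (SE 0.20). The sarcomeric α-actinin genes Actn2 and Actn3 had the lowest unadjusted p of the list and differed by -0.96 (SE 0.30, adjusted p = 0.907 in limma) and -1.21 (SE 0.45, adjusted p = 0.977 in limma).

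Among actin isoforms the sarcomeric ones lay lower and the cytoplasmic ones close. Actc1, cardiac α-actin, read 8.77 and 9.73 on the control arrays and 8.29 and 6.97 on those with Wnt3A, giving a difference of -1.63 (SE 0.56, adjusted p = 0.949 in limma). Acta1, skeletal α-actin, read 9.99 and 11.27 on the control arrays and 9.69 and 9.59 on those with Wnt3A, giving a difference of -0.99 (SE 0.44). With 1 array left out the Acta1 difference ran from -1.62 without control replicate 1 to -0.35 without control replicate 2, and that of Actc1 from -2.28 without Wnt3A replicate 1 to -0.97 without Wnt3A replicate 2. Actb and Actg1 differed by -0.065 (SE 0.14) and -0.048 (SE 0.15), values that were above 0 with hybridization control scaling; a second Actb probe set gave 0.48. Over 23 tested genes of actin isoforms and the non-muscle actin machinery the median was 0.02, with 12 higher, 11 lower, 0 passing in limma and 2 at an unadjusted p under 0.05. Both Wnt3A arrays lay below both controls for 6 of the 23 and above them for 2, beside 19.6% and 14.8% of all tested genes. Wnt3A replicate 2 was at least 2-fold under replicate 1 for 2 of the 23 (Actc1 and Actg2), beside 5.42% of all probe sets tested. Myh9, non-muscle myosin heavy chain, differed by 0.25 (SE 0.15), the filamin gene Flna by 0.067 (SE 0.26) and the zyxin gene Zyx by 0.031 (SE 0.26), or -0.16 on its other probe set. Lima1, an actin bundling protein gene with the lowest unadjusted p of the list, differed by -0.82 (SE 0.25, adjusted p = 0.874 in limma). Its other probe sets gave -0.58 (SE 0.87) and -0.73 (SE 0.62), with overlapping groups. On these, Wnt3A replicate 2 lay under replicate 1 by 1.98 and 1.69.

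**Figure D4:**
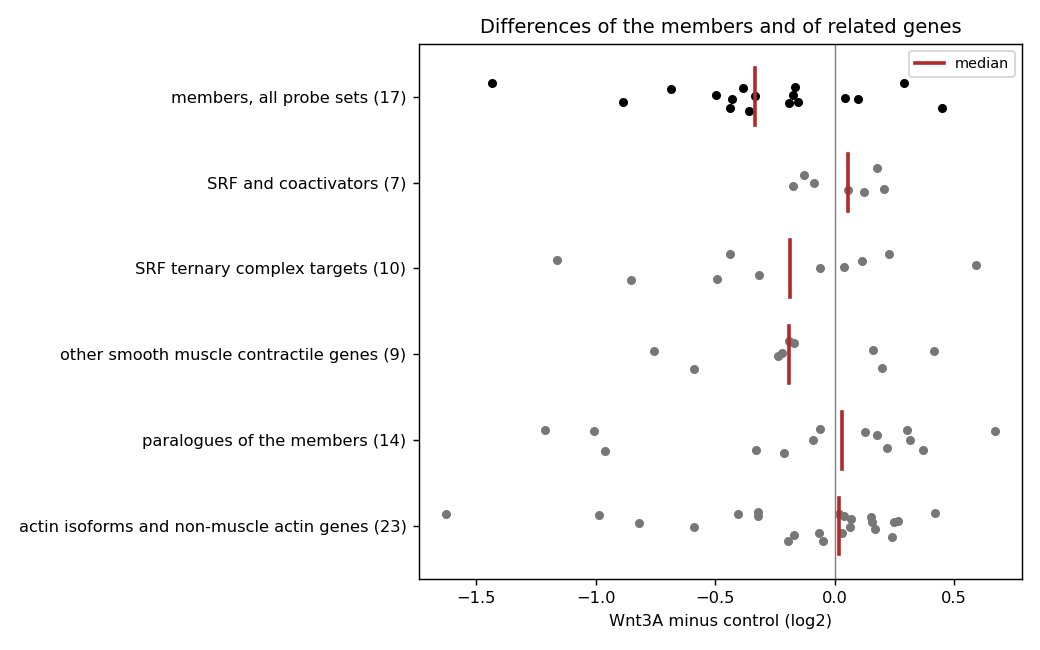
Wnt3A minus control (log2, horizontal axis) for the 17 tested probe sets of the 10 genes (black) and for the tested genes of 5 related lists (grey, each gene by its brightest probe set); red lines are medians and the number tested is in brackets. The median of the 10 genes' probe sets is -0.33 and those of the lists run from -0.19 to 0.057, with wide overlap.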

How the data were processed

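Expression in C2C12 cells was measured on 4 Affymetrix arrays, 2 control and 2 Wnt3A, grouped by the sample titles. The values as deposited run from 0.503 to 13.23, 1 for each array and probe set, and were taken as log2 signals from this range; a different base would rescale every difference. Per the submitters' processing notes the tools include GCOS and PLIER; their roles and versions, the normalization, centring and build were not given in the sources used here. Detection calls were not used. The protocol text mentions Wnt3A for controls too, so the titles decided. Of 22690 probe sets, 64 array controls and the dimmest 25% of the rest by mean over the 4 arrays (under 2.01) were left out. Symbols came from the platform annotation, updated by Entrez ID; 691 probe sets with several symbols and 1555 not listed were unnamed but tested. Differences were fitted in R 4.3.3 with limma 3.58.1 (lmFit, eBayes with intensity trend, group as the only term, two-sided). Benjamini-Hochberg adjustment was over all 16969 probe sets. The fit was also run on simulated data with known differences and independent noise, as a check of the code. No rate of calls at differences of the size seen here was taken from it. The number of arrays limits the precision. Each list gene was read by its probe set of highest mean. Named list genes were a written set and the 2 of lowest unadjusted p per list; other names were chosen after values were seen. One further list is not reported here. The genes and lists were chosen with earlier results of these data known. Alternatives were the filter, normalization, a floor, 1 probe set per gene, eBayes without trend, the replicate block and each array left out.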

Additional observations from a re-analysis of the deposited data

How the results depend on the processing

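No alternative gave a call for any of the 17 probe sets. Over all probe sets 0 were called with the group as the only term, 83 with the replicate number as a block (32 higher, 51 lower) and 172 with hybridization control scaling (104 higher, 68 lower). The labels do not say whether equal numbers mark shared cultures. Replicate 1 minus replicate 2 correlated between the groups at r = 0.518 over all probe sets tested and at r = 0.124 over the 17. With the dimmer 50% left out, both Wnt3A arrays lay above both controls for 1 of 15 tested, beside 15.6% of all probe sets. With 1 probe set per gene this held for 1 of 10, beside 14.8%. The count below both controls was 0 of the 17 with hybridization control scaling, beside 4.23%. Leaving out 1 array each, list medians ran from -0.14 to 0.12 (SRF and coactivators), -0.40 to -0.044 (ternary complex targets), -0.11 to 0.14 (paralogues) and -0.14 to 0.081 (actin genes). The counts above and below ran from 2 to 6 and from 5 to 12 of the 17, and the median difference from -0.50 to 0.10. In these settings the shares over all probe sets tested were 29.5% to 36.5% above and 31.8% to 37.2% below. Hybridization control scaling raised every difference by the same amount, so small negative ones turned, and the median of all probe sets tested became 0.31. Against that median the genes that turned still lay lower. With hybridization control scaling the sign turned for Tpm1 1423721_at (0.15), Cald1 1424768_at (0.14), Actn1 1427385_s_at (0.16), Actn1 1452415_at (0.12), Srf (0.14), Smtn (0.12), Mylk (0.098), Tpm2 (0.23), Actb (0.25) and Actg1 (0.27). With 1 array left out the sign turned at least once for Acta2 (-1.06 to 0.40), Cnn1 (-1.07 to 0.20), Tpm1 1456623_at (-0.50 to 0.70), Cald1 1424768_at (-1.13 to 0.78), Cald1 1424770_at (-1.55 to 0.18), Actn1 1427385_s_at (-0.80 to 0.50), Actn1 1452415_at (-0.70 to 0.32), Vcl 1416156_at (-0.091 to 0.18), Mrtfa (-0.17 to 0.42), Mrtfb (-0.092 to 0.21), Fhl2 (-0.041 to 0.39), Fos (-0.96 to 0.33), Junb (-0.092 to 0.55), Smtn (-0.77 to 0.38), Actg2 (-1.18 to 0.0072), Csrp1 (-0.041 to 0.37), Cnn3 (-0.018 to 0.46), Tagln2 (-0.12 to 0.73), Tpm2 (-0.21 to 0.028), Tpm4 (-0.014 to 0.26), Actb (-0.14 to 0.0091), Actg1 (-0.14 to 0.042), Flna (-0.19 to 0.32) and Zyx (-0.20 to 0.27), given as lowest to highest difference. The lone array left in a group is assumed to vary like the others. The causes were not tested. Background correction was not run, as only summarised values were used; values floored at 2.01 gave the same median, -0.33. Dim signals such as those of Acta2 1456658_at and Myocd limit what can be seen.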
